A study of Mus musculus with 5 samples.

Results

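The genes described here are 7 matrix metalloproteinases, Mmp2, Mmp3, Mmp9, Mmp12, Mmp13, Mmp14 and Mmp19, and 3 tissue inhibitors of metalloproteinases, Timp1, Timp2 and Timp3. They were taken by symbol from the tables of all 5 libraries and are 10 of the 14161 genes listed in any library. RNA came from cultures labelled bone mesenchymal stem cells, grown from the femoral marrow of C57BL/6 mice aged 6 to 8 weeks in α-MEM with 12% serum and used at passages 1 to 3. One group held 3 libraries of Bmal1-knockout cells and the other 2 libraries of Wild Type cells. Bmal1, listed as Arntl, encodes a transcription factor of the circadian clock that acts as a dimer with CLOCK. How the knockout was made was not given in the sources used here, nor whether the libraries of a group came from separate mice. The p-values below therefore measure the spread between libraries, which may be technical.

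Metalloproteinases are zinc enzymes, made as inactive proenzymes, that cut collagens, proteoglycans and other matrix proteins outside the cell. Each TIMP binds the active site of an active enzyme and blocks it, so the ratio of proteases to TIMPs is a common summary of the potential for matrix turnover. In bone and marrow, stromal cells, osteoblasts, macrophages and osteoclasts all make members of the family. Transcript levels do not measure how much of an enzyme has been activated.

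Mmp3 and Timp3 rose in the knockout libraries, by 1.42 (SE 0.47) and 0.82 (SE 0.16) on the log2 scale, and Mmp9 fell by 0.66 (SE 0.18). The other 6 tested genes of the family did not pass the test, and Mmp12 was too low to test. Summed over the 7 metalloproteinases, FPKM was about the same in both groups, at a ratio of 1.00. Summed over the 3 TIMPs it was 1.28 times as high in the knockout, so the ratio of proteases to inhibitors was lower there, 1.51 ± 0.197 (SD, n = 3) against 1.92 ± 0.230 (n = 2). In an edgeR quasi-likelihood test with Benjamini-Hochberg adjustment over 3710 genes at 0.05, 16.3% of all tested genes passed, 8.19% as higher and 8.14% as lower. Of the 9 tested members, 2 were higher and 1 lower, with a median log2 fold change of 0.25 against 0.01 over all tested genes. With so few members, nothing particular to the family is read from these shares. The CPM of the groups (counts scaled to the normalised total of each library) did not overlap for 4 of the 9 tested members, Mmp2, Mmp3, Mmp9 and Timp3, or 44.4%, beside 42.7% of all tested genes.

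The libraries were shallow. Expected counts summed to between 226695 and 281990 in the knockout and to 243072 and 211623 in the wild type, and 3 counts, the limit that a count of 0 allows, were worth 12.1 to 15.9 CPM. Arntl, the targeted gene, had 4, 1 and 2 counts in knockout 1, 2 and 3 and 5 and 0 in wild type 1 and 2. Its knockout to wild type ratio of 0.843 had an exact 95% Poisson interval from 0.230 up to 3.37, so it checks no label at this depth. Such intervals, here and below, cover counting error alone. Markers went beyond the labelled cell type. All 15 macrophage markers were detected in every library, and together they reached 9679 to 10815 CPM in the knockout and 15334 to 15602 in the wild type. Of 14 stromal markers all were listed, and their sum was 10511 to 11161 CPM against 4097 to 4209. Thy1, a defining marker of cultured mesenchymal stem cells, had 2, 0 and 0 counts against 3 and 0. In bulk RNA, fewer cells of a type and less RNA per cell cannot be told apart.

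Levels of different genes are compared in FPKM, which is per length. Mmp13 was the highest of the 10 genes in both groups, at rank 159 of all genes in the knockout and 150 in the wild type, and Timp1 followed at rank 176 and 215. In the knockout the order then ran Mmp19, Timp3, Mmp9, Mmp14, Timp2, Mmp2, Mmp3 and Mmp12. In the wild type Mmp9 stood before Mmp19 and Timp3, and the rest kept this order. Among the knockout libraries the values of Mmp13 and Timp1, Mmp19 and Timp3, Mmp9 and Mmp14, and Timp2 and Mmp2 overlapped, and which of each pair was higher changed between libraries. Those of Mmp14 and Timp2 also overlapped, but Mmp14 was the higher within every library. In the wild type only Timp2 and Mmp2 overlapped as neighbours. Mmp3 lay below Mmp2 and above Mmp12 in every library, and moved from rank 3123 of all genes in the wild type to 1341 in the knockout.

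**Figure D1:**
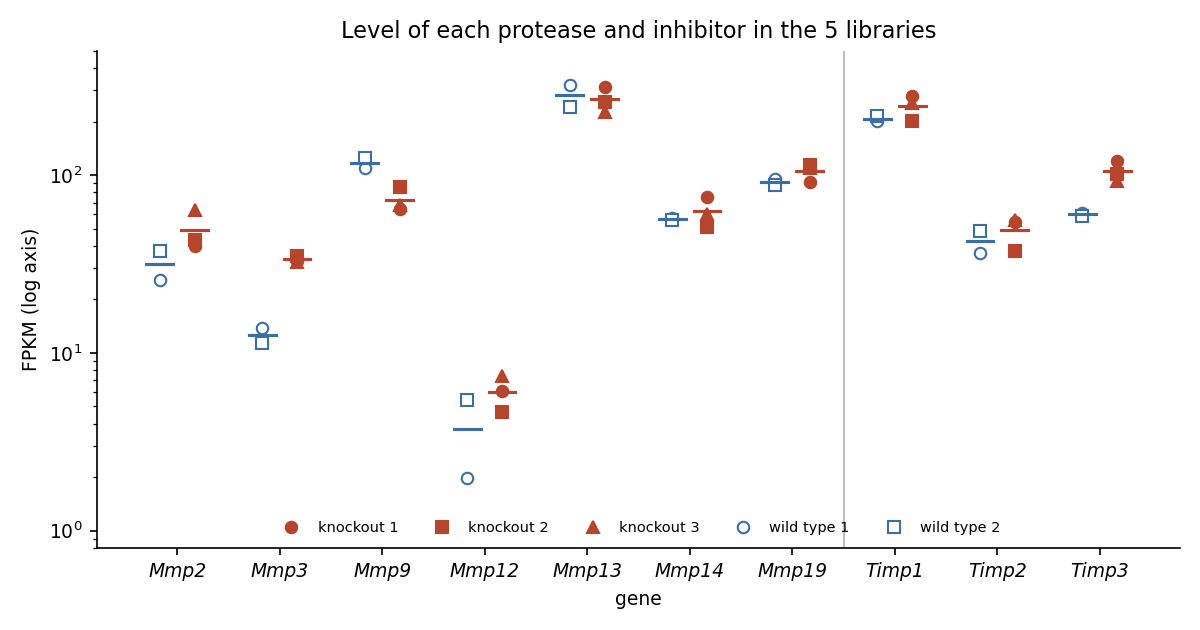
Deposited FPKM (log axis) of the 10 genes, with each library as a point (filled, knockout; open, wild type) and the group mean as a bar, proteases left of the grey line and TIMPs right. Knockout and wild type points are apart for Mmp2, Mmp3, Mmp9 and Timp3, with Mmp3 near 33.5 against 12.6 and Mmp9 near 72.6 against 117 FPKM.

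Mmp3, Mmp12 and Mmp13 lie in 1 cluster on chromosome 9 that holds 10 Mmp genes. In GRCm38.p6, the RefSeq form of mm10, Mmp3 (Entrez 17392) spans chr9:7445822-7455975 on the plus strand, Mmp13 (17386) chr9:7272514-7283333, which begins 173308 bases before Mmp3, and Mmp12 (17381) chr9:7344397-7360461. The neighbours of Mmp3 were not expressed to a level that could be tested, apart from Mmp13 and Mmp8. Mmp1b, Mmp1a, Mmp10, Mmp20 and Mmp7 were listed in no library. The 250 bases before the annotated starts of Mmp3, Mmp13 and Timp3 are shown because Mmp3 and Mmp13 lie in 1 cluster and hold the same 3 motifs, while Mmp3 passed the test and Mmp13 did not, and because Timp3 is the other member that rose. Whether the changes of Mmp3 and Mmp13 differ was not tested. They run 5′ to 3′ on the plus strand, from RefSeq, at chr9:7445572-7445821, chr9:7272264-7272513 and chr10:86300162-86300411 of GRCm38.p6. Capitals mark 4 searched motifs on either strand: the E-box CACGTG that BMAL1 and CLOCK bind, the AP-1 site TGANTCA, the PEA3 site AGGAAG of ETS factors, and the TATA box TATAAA.
Mmp3: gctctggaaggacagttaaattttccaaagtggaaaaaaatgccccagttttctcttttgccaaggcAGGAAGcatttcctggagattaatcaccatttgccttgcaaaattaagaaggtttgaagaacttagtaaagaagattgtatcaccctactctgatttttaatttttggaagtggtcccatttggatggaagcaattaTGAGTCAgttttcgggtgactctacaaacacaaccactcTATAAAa
Mmp13: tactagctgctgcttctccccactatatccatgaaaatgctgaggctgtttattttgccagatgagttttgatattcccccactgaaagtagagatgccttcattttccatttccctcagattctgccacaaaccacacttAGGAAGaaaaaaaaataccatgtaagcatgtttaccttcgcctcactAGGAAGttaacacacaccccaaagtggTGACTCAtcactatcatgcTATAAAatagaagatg
Timp3: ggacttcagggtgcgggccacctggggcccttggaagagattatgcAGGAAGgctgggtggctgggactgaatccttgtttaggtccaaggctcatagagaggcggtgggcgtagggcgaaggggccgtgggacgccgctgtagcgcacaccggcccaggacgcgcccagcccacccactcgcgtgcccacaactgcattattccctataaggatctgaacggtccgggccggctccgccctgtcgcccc
The Mmp3 window holds TGAGTCA 46 bases, AGGAAG 183 bases and TATAAA 7 bases before the start. The Mmp13 window holds TGACTCA at 35, AGGAAG at 109 and 62, and TATAAA at 16 bases before its start. The Timp3 window holds AGGAAG at 204 bases and no AP-1 or TATA letters, and its GC content is 65.6% against 37.6% for Mmp3. The letters CACGTG were found in none of the windows of the 7 members with a promoter entry (Mmp3, Mmp12, Mmp13, Mmp14, Timp1, Timp2 and Timp3); Mmp2, Mmp9 and Mmp19 had none. Of 32851 promoters of the same length, 6.02% hold the E-box, 6.75% the AP-1 site, 29.5% the PEA3 site and 12.4% the TATA box. TGANTCA and CACGTG read the same on both strands, and no matches overlapped. These are matches of letters in these windows, not measured binding.

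Stromelysin-1, the product of Mmp3, cuts proteoglycans, fibronectin and laminin and activates the proenzymes of other metalloproteinases. It had 16, 18 and 20 counts in knockout 1, 2 and 3 and 7 and 5 counts in wild type 1 and 2. As FPKM these are 33.0, 35.0 and 32.6 against 13.8 and 11.4, so the lowest knockout library stood well above the highest wild type library. The SD of the 3 knockout values was 1.29 FPKM. That is less than counting error alone gives at 16 to 20 counts, so it is no measure of precision. The fold change was 2.68 (log2 1.42, SE 0.47; edgeR adjusted p = 0.0187), and the ratio of summed counts, 54 against 12, had an exact Poisson interval of 1.43 to 5.57. The study's title names this gene, so its direction does not count as independent support. It lost the call in 6 of 11 alternatives, including without wild type 1 (1.57, adjusted p = 0.134) or wild type 2 (1.28, adjusted p = 0.198) and with DESeq2 (1.46, adjusted p = 0.107).

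Among the secreted collagenases, which open the triple helix of fibrillar collagen, Mmp13 carried nearly all of the expression. Its FPKM was 313, 259 and 228 in the knockout against 320 and 243, and the groups overlapped over most of their range. The log2 fold change was -0.06 (SE 0.13; edgeR adjusted p = 0.811), with a count ratio of 0.951 (0.839 to 1.08). Per transcript length, Mmp13 thus exceeded Mmp3 by a mean ratio of 22.3 in the wild type and 7.95 in the knockout, and these ratios did not overlap between groups (6.99 to 9.47 against 21.4 and 23.1). This repeats the difference of Mmp3 and is no separate result. Mmp8, the collagenase of neutrophils, had 3, 5 and 11 counts against 11 and 14 and did not pass (log2 fold change -1.12, SE 0.54; edgeR adjusted p = 0.145).

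The gelatinases, which cut denatured collagen and basement membrane, had opposite signs. Mmp9 (Entrez 17395, chr2:164940326-164955850), made largely by leukocytes and osteoclasts, had 57, 81 and 76 counts in knockout 1 to 3 against 102 and 101 in wild type 1 and 2. Its FPKM was 64.2, 85.9 and 67.6 against 110 and 125, and every knockout library lay below both wild type libraries. Mmp9 fell by 0.66 on the log2 scale (SE 0.18; edgeR adjusted p = 0.00279), a ratio of 0.635 (0.522 to 0.773). That call was lost without wild type 2 (-0.58, adjusted p = 0.140) and with limma on log2(FPKM + 1) (-0.70, adjusted p = 0.0620). Mmp2 (Entrez 17390, chr8:92827290-92853421), the gelatinase of stromal cells, had 34, 39 and 69 counts against 23 and 29. Its FPKM of 39.8, 42.9 and 63.6 lay above 25.7 and 37.3, but knockout 1 and wild type 2 were close. The log2 fold change of 0.70 (SE 0.27) did not pass (edgeR adjusted p = 0.0597), and it passed without knockout 1 (0.86, adjusted p = 0.0162). The Mmp2 count ratio was 1.65 (1.19 to 2.31). The FPKM ratio of Mmp9 to Mmp2 was 1.62, 2.00 and 1.06 in the knockout against 4.27 and 3.36, without overlap. It repeats the differences of the 2 genes and is no separate result.

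Mmp14 (Entrez 17387, chr14:54431598-54442456) encodes the membrane-bound enzyme that, with TIMP2 as a bridge, activates proMMP2. It stood at 75.1, 51.3 and 60.7 FPKM in the knockout against 57.4 and 55.7, and the wild type values fell inside the knockout range (log2 fold change 0.17, SE 0.20; edgeR adjusted p = 0.633). Mmp19 (Entrez 58223, chr10:128790910-128800827), a secreted enzyme that cuts basement membrane proteins, stood at 90.9, 114 and 110 FPKM against 95.2 and 87.9. It did not pass either (0.24, SE 0.17; edgeR adjusted p = 0.378), and its count ratio of 1.18 had an interval of 0.974 to 1.43. Exons of Mmp19 lie opposite those of Tmem198b over 789 bases. Tmem198b had 1594 CPM in the knockout and 1651 in the wild type, and since the strand setting was not stated, reads in that stretch cannot be told apart. Mmp12, the elastase of macrophages, had 6, 5 and 9 counts against 2 and 5. Its ratio of 1.72 had an exact Poisson interval of 0.699 to 4.82, so no difference was detectable at this depth. Its exons lie opposite Mmp1b over 157 bases, a gene listed in no library.

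Outside the 10 genes, 9 of 16 further metalloproteinases were listed and 2 were tested, with 1 higher and none lower. Mmp24, a membrane-type enzyme best known from the nervous system, had 230, 202 and 317 counts against 191 and 155, or 190, 157 and 206 FPKM against 151 and 141. It rose by 0.38 (SE 0.13; edgeR adjusted p = 0.0301), a call lost in 7 of 11 alternatives, among them without knockout 3 (0.26), wild type 1 (0.42) and wild type 2 (0.31). Exons of Mmp24 lie opposite BC029722 over 637 bases, a gene with 6, 3 and 0 counts against 2 and 2. The other 7 listed genes had few reads. Summed over the knockout and over the wild type libraries these were 10 and 11 counts for Mmp11, 7 and 4 for Mmp28, 7 and 1 for Mmp23, 5 and 2 for Mmp17, 4 and 3 for Mmp16, 3 and 4 for Mmp27 and 2 and 0 for Mmp21. For each, the exact Poisson interval of the ratio included 1.

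Of the TIMPs, only Timp3 passed the test. Timp3 (Entrez 21859, chr10:86300412-86349505) encodes the inhibitor that stays bound to the matrix and also blocks ADAM and ADAMTS enzymes. It had 159, 143 and 155 counts in the knockout libraries against 85 and 71, or 120, 102 and 92.6 FPKM against 61.4 and 59.1. Every knockout library was far above both wild type libraries, which lay close together. Timp3 rose 1.77-fold (log2 0.82, SE 0.16; edgeR adjusted p = 1.04e-05), with a count ratio of 1.76 (1.47 to 2.13). It passed in all 11 alternatives, at 0.76 to 0.89 and adjusted p from 6.69e-06 to 0.0361. Exons of Timp3 and of Syn3 on the other strand overlap over 1733 bases, where reads cannot be told apart. Syn3 was at -0.05 (edgeR adjusted p = 0.932) with 72 counts against 45.

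Timp1 (Entrez 21857, chrX:20870166-20874737), a soluble inhibitor that also binds proMMP9, was the highest of the 3 at 277, 202 and 254 FPKM against 201 and 214. Knockout 2 lay with the wild type libraries, and the log2 fold change of 0.28 (SE 0.23) did not pass (edgeR adjusted p = 0.446). Timp2 (Entrez 21858, chr11:118301061-118355411, minus strand), the partner of Mmp14, stood at 54.1, 37.4 and 55.9 FPKM against 36.6 and 48.6. It overlapped in the same way (0.25, SE 0.24; edgeR adjusted p = 0.529). The count ratios were 1.22 (0.941 to 1.59) and 1.20 (0.916 to 1.58). Whether the change of Timp3 differs from those of Timp1 and Timp2 was not tested. Of other inhibitors of these enzymes, Timp4 had 1 count in all, Reck 1, A2m 7 split as 3 and 4, and Pzp 11 against 8.

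**Figure D2:**
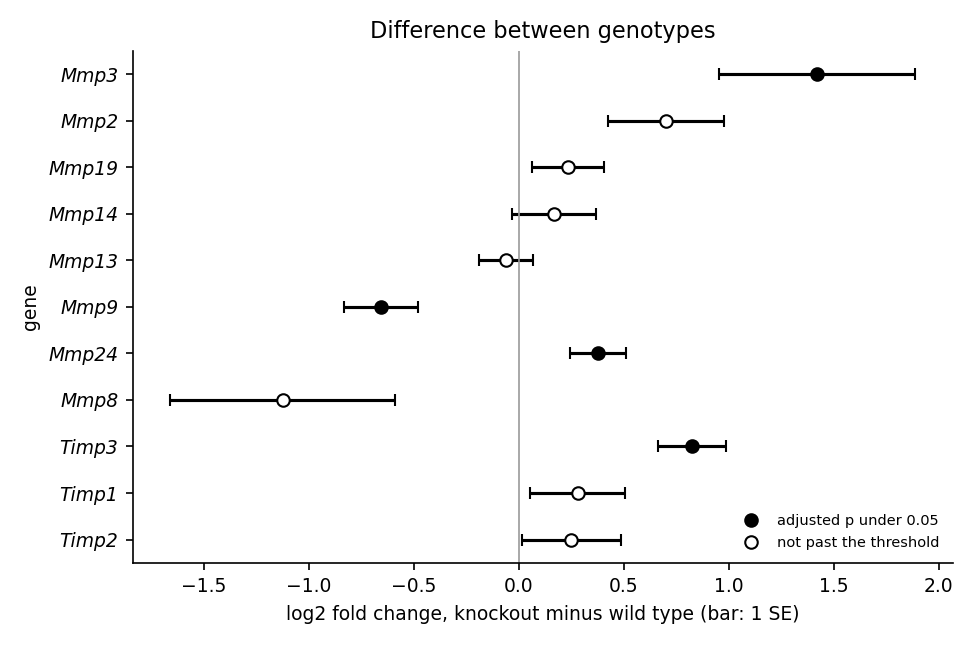
Log2 fold change of each tested metalloproteinase and TIMP, knockout minus wild type, with bars of 1 SE and filled points where the edgeR adjusted p was under 0.05. Mmp3 (1.42), Timp3 (0.82) and Mmp24 (0.38) lie to the right and Mmp9 (-0.66) to the left as filled points, and Mmp2 (0.70) is open.

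Within a protease sum that was level between the groups, the shares of Mmp3 and Mmp9 did not overlap. With a level sum, these shares repeat the FPKM differences given above and are no separate result. Summed FPKM of the 7 metalloproteinases was 622, 593 and 569 in the knockout against 623 and 566. Mmp13 made up 44.7% ± 5.23 (SD, n = 3) of it in the knockout and 47.1% ± 5.90 (n = 2) in the wild type, with overlap. The share of Mmp9 was 10.3%, 14.5% and 11.9% against 17.6% and 22.1%, lower in every knockout library. Mmp3 held 5.31%, 5.90% and 5.72% against 2.22% and 2.01%, higher in every knockout library. Of the FPKM of all 16 listed metalloproteinases Mmp3 was 4.18% ± 0.323 against 1.62% ± 0.136, a ratio of 2.58. That ratio stayed between 2.44 and 2.74 with any library left out. This range does not cover the counting error of Mmp3, which had 54 counts against 12. The mean share of Mmp2 was 8.27% against 5.36% with overlapping values, and Mmp14, Mmp19 and Mmp12 overlapped too. Mmp3 was a small part of the protease sum in both groups, behind Mmp13, Mmp19, Mmp9, Mmp14 and Mmp2.

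**Figure D3:**
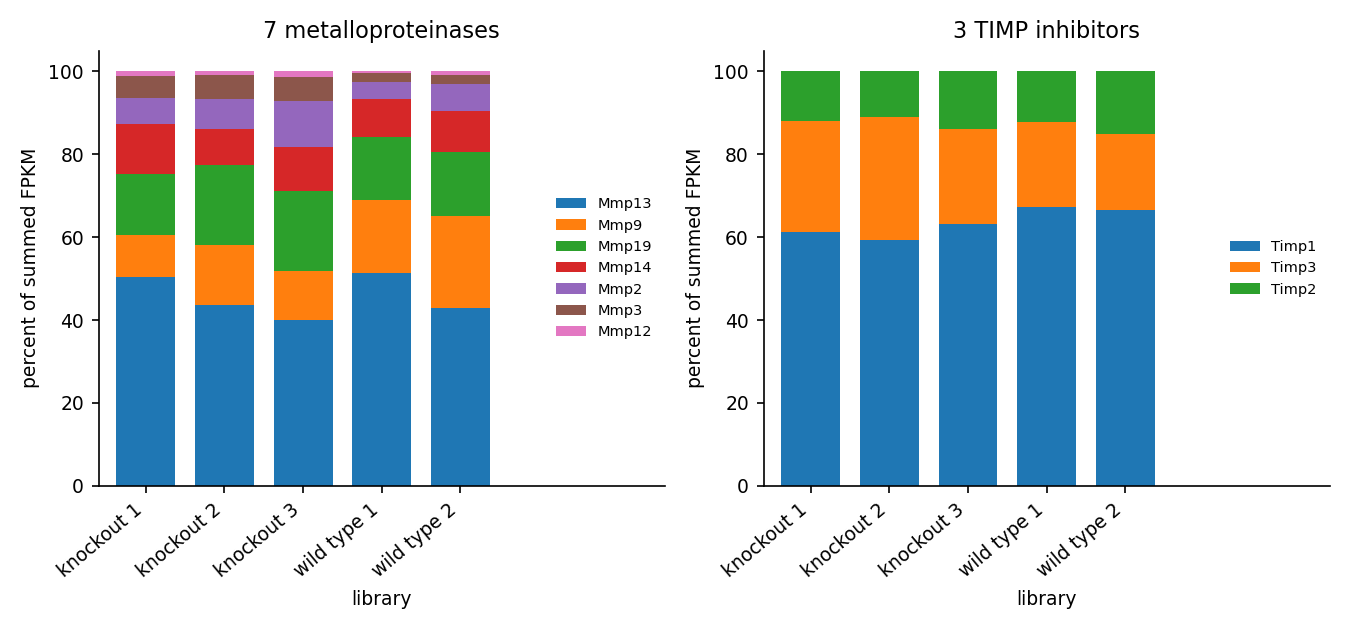
Percent of the summed FPKM held by each gene in the 5 libraries, for the 7 metalloproteinases (left) and the 3 TIMPs (right). Mmp13 is the largest protease segment everywhere, the Mmp9 segment is 10.3% to 14.5% in the knockout against 17.6% and 22.1%, and Timp3 takes 23.0% to 29.8% of the TIMP sum against 20.6% and 18.4%.

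Summed TIMP FPKM was 451, 342 and 402 in the knockout against 299 and 321, so each knockout library was higher. Timp1 gave 61.2% ± 1.93 of that sum in the knockout and 66.8% ± 0.506 in the wild type, and Timp3 26.5% ± 3.41 against 19.5% ± 1.53. The ratio of the metalloproteinase sum to the TIMP sum was 1.38, 1.74 and 1.42 in the knockout against 2.09 and 1.76. Every knockout library lay below both wild type libraries, but knockout 2 and wild type 2 nearly met. The mean ratio in the knockout was 0.785 of that in the wild type. It was 0.724 to 0.858 with any library left out, 0.829 without Mmp13, 0.670 without Timp1 and 0.816 with all listed Mmp and Timp genes. Without Timp3, chosen after its call was seen, the mean ratios were 2.06 and 2.39 and the groups overlapped. No test was made of these sums, which were built from chosen genes.

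**Figure D4:**
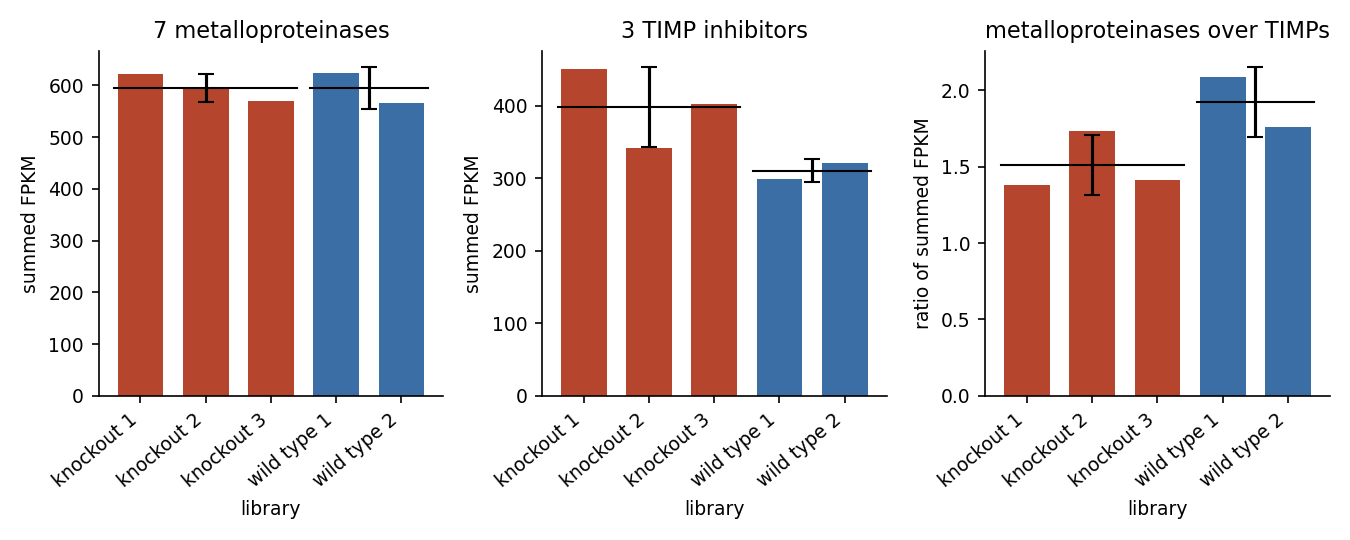
Summed FPKM of the 7 metalloproteinases, of the 3 TIMPs and their ratio in each library (bars; red, knockout; blue, wild type), with group means as lines and SD as error bars. The protease sums are level (595 against 594), the TIMP sums are higher in the knockout, and the ratio is 1.38 to 1.74 in the knockout against 1.76 and 2.09.

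Ratios of single enzymes to the inhibitors they are known to meet did not all follow the sum. Mmp9 over Timp1 was 0.232, 0.424 and 0.266 against 0.546 and 0.586, lower in every knockout library. Mmp14 over Timp3 was 0.594 ± 0.0807 (SD, n = 3) against 0.938 ± 0.00663 (n = 2), also lower without overlap. Mmp3 went the other way: over Timp1 it was 0.140 ± 0.0287 against 0.0609 ± 0.0110, and over Timp3, which itself rose, 0.323 ± 0.0426 against 0.208 ± 0.0231. Mmp2 over Timp2, Mmp14 over Timp2 and Mmp13 over Timp1 overlapped between the groups, with means of 1.01 and 0.734, 1.28 and 1.36, and 1.10 and 1.36. Every ratio without overlap holds Mmp3, Mmp9 or Timp3. Those ratios repeat the differences of these genes given above and are no separate result.

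The wider protease lists were chosen by family and read from the same fit. Over all tested genes of that fit 8.19% were higher and 8.14% lower, with a median of 0.01. These shares stand beside the counts of each list, here and in the next paragraphs. Each list holds few tested genes, and no list was tested as a set. Of 22 listed ADAM and ADAMTS genes 7 were tested, with 1 higher, 1 lower and a median of -0.23. Adamts5, an aggrecanase that TIMP3 inhibits, had 17, 8 and 22 counts against 4 and 1 and rose by 2.44 (SE 0.59; edgeR adjusted p = 0.000607), and by 3.57 without wild type 1. It did not pass without wild type 2 (1.87) or with voom (adjusted p = 0.192), fell below the count filter without knockout 1 or knockout 3, and had no adjusted p with DESeq2. Adam8, a membrane protease of leukocytes and osteoclasts, had 64, 45 and 48 counts against 83 and 88 and fell by 0.85 (SE 0.20; edgeR adjusted p = 0.000328), not past the test without wild type 2 (-0.72) or with limma on log2(FPKM + 1) (-0.89, adjusted p = 0.0596). Of 7 tested astacin and serine proteases and their helpers 2 were higher and none lower, with a median of 0.87. These 2 were Pcolce, a glycoprotein that speeds the trimming of procollagen (2.49, SE 0.46; 112 exon bases opposite Gm36266), and Prss23, a secreted serine protease (1.48, SE 0.28; 864 exon bases opposite Prss23os). Plau, the urokinase that turns plasminogen into plasmin, and Furin, which cleaves the propeptide of Mmp14, did not pass (0.98, edgeR adjusted p = 0.0910, and 0.58, adjusted p = 0.398).

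Lysosomal cathepsins went the other way. Of 11 tested, none was higher and 6 were lower, beside 8.14% lower of all tested genes, with a median of -0.53. Ctsl fell by 1.01 (SE 0.12), from 2103 to 1046 CPM, and Ctss, a protease of antigen presentation, by 0.86 (SE 0.13), from 1264 to 694 CPM. Exons of Ctsl lie opposite Gm47123 over 1742 bases. Cathepsins together reached 9456 ± 153 CPM (SD, n = 3) against 14074 ± 414 (n = 2), a ratio of 0.672, beside a ratio of 0.654 for the macrophage markers. Most of that macrophage marker sum was Lyz2. The part of macrophages in the cathepsin levels was not tested.

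Serpin and cystatin inhibitors, which act on other protease classes, had 8 tested members, 4 higher and 1 lower (median 0.53). Serpinh1, the collagen chaperone HSP47, rose by 2.00 (SE 0.22) and Serpinf1, the secreted factor PEDF, by 2.18 (SE 0.31). Neither of these is known mainly as a protease inhibitor. The other genes called higher were the inhibitors Serping1 (1.13, SE 0.19) and Serpine2 (1.07, SE 0.25). Cstb, an inhibitor of cathepsins, fell by 0.90 (SE 0.33; edgeR adjusted p = 0.0395), a call lost in 8 of its 11 alternatives. It held only with RLE scaling, voom and the first knockout library left out.

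Of 16 genes that induce metalloproteinases, bind them or clear them, 8 were tested, 2 were higher and 2 lower (median 0.18). Thbs2, a matrix protein that helps clear MMP2 through LRP1, rose by 1.46 (SE 0.16), and Bsg, the surface inducer EMMPRIN, by 0.64 (SE 0.17), with Bsg not past the test when either wild type library was left out (0.62 and 0.65). Il1b, the cytokine that induces Mmp3 in many stromal cells, had 3, 1 and 13 counts against 22 and 17 and fell by 1.91 (SE 0.44; edgeR adjusted p = 0.000298). Knockout 3 stood apart from the other 2 knockout libraries, and the log2 fold change was -3.27 without it and -1.45 without knockout 2. Il1b did not pass without wild type 1 (-1.84) or with limma on log2(FPKM + 1) (-2.49, adjusted p = 0.0524), and had no adjusted p with DESeq2. Cd44, a hyaluronan receptor that can hold Mmp9 at the cell surface, fell by 0.99 (SE 0.26), not past the test without wild type 2 (-0.89) or with limma on log2(FPKM + 1) (-1.01).

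Of 13 AP-1, ETS and NF-kB factors, families known to activate metalloproteinase genes, 6 were tested, none was higher and 2 were lower (median -0.59). Fos had 5, 9 and 6 counts against 25 and 28 and fell by 2.12 (SE 0.40; edgeR adjusted p = 3.95e-06). Junb had 12, 15 and 15 against 25 and 30 and fell by 1.12 (SE 0.35; edgeR adjusted p = 0.0119), and did not pass without wild type 2 (-0.89), with no filter (adjusted p = 0.0557), with DESeq2 (adjusted p = 0.0840) or with the replicate block (adjusted p = 0.0556). Of the fibrillar collagens, substrates of Mmp13 and Mmp14, 7 were tested, 5 were higher and none lower (median 1.38). Col3a1 rose by 1.38 (SE 0.11) and Col1a1 by 1.63 (SE 0.13).

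Across the 5 libraries, the genes whose log2 CPM ran closest to that of Mmp3 among 3133 genes with at least 50 counts were Csf1 (Pearson r = 0.999), Eme1 (0.998), Unc13a (0.997), Mterf4 (0.997) and Chid1 (0.996). The libraries fall into 2 groups, so a gene that differs between them with little spread gets a high r, and no test is given. Csf1 encodes the growth factor of macrophages and had 43, 50 and 54 counts against 23 and 17. Within the family Timp3 was nearest (r = 0.962, rank 122), Mmp2 followed at 0.684, and Mmp9 was farthest (-0.870).

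Marker levels moved with genotype and so stand beside each result. Of 15 tested macrophage markers none was higher and 7 were lower, and of 9 tested stromal markers 4 were higher and none lower. These 4 were Cxcl12 and the fibrillar collagens Col1a1, Col1a2 and Col3a1. The other tested stromal markers did not pass, at 1.01 for Dcn, 0.82 for Vcam1, 0.15 for Pdgfrb, -0.22 for Ly6a and -0.34 for Pdgfra. Over all tested genes 8.19% were higher and 8.14% lower. The highest macrophage markers were Lyz2 (6789 against 10767 CPM), Adgre1 (622 against 837) and C1qc (496 against 617, edgeR adjusted p = 0.180). The highest stromal markers were Col3a1 (4882 against 1874), Col1a2 (2671 against 935) and Col1a1 (2008 against 652). Pdgfra, a receptor that marks mesenchymal cells, had 12, 21 and 15 counts against 25 and 12, and Lepr, a marker of marrow stroma, 3, 4 and 3 against 0 and 5. Markers of other cells were listed in part. For neutrophils 3 of 10 were, at a summed 34.8 ± 19.5 CPM (SD, n = 3) against 78.1 ± 17.4 (n = 2). Mpo, Elane and Ly6g were at 0. Most of this neutrophil sum was Mmp8 (27.6 against 63.0 CPM), described above among the collagenases, so the sum is no separate result. The other listed neutrophil markers had few reads, with group totals of 3 against 6 counts for S100a8 and 2 against 0 for Camp. For osteoclasts 4 of 7 were listed, at 171 ± 35.2 CPM against 368 ± 84.3, with Calcr, Dcstamp and Ocstamp at 0. Nearly all of that sum was Acp5 (84.3 against 213 CPM) and Ctsk (82.4 against 125 CPM). Ctsk is also counted among the cathepsins above. For endothelial cells 5 of 6 were listed, at 157 ± 25.8 CPM against 181 ± 23.0.

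Each gene was also set against the marker sums, a comparison chosen after the values were seen. Per 1000 macrophage marker counts, Mmp9 was 25.3, 39.8 and 31.2 in the knockout against 30.7 and 35.0, so the groups overlapped (ratio of means 0.977). The other 9 genes were higher in every knockout library on that scale. The macrophage sum was itself lower in the knockout (CPM ratio 0.654), which raises any gene whose CPM was level. Mmp13, which did not pass the test, came out at a ratio of 1.48. Most of the macrophage scale is 1 gene, Lyz2, with 1476 of 2251, 1374 of 2036 and 1667 of 2437 counts in the knockout. In the wild type Lyz2 gave 2331 of 3321 and 1991 of 2885 counts. The scale without Lyz2 was not computed. Per 1000 stromal marker counts, Mmp3 was 6.89, 8.14 and 7.70 against 8.03 and 6.31, which overlapped too (ratio 1.06). Mmp2 and Mmp12 also overlapped, and the other 7 genes, Timp3 included (64.3 against 93.6), were lower in every knockout library. The stromal sum was higher in the knockout (CPM ratio 2.58), which lowers any gene whose CPM was level. The share of all genes that do not overlap on these scales was not computed. Of the stromal marker counts, a mean of 2378 in the knockout and 832 in the wild type, most were Col1a1, Col1a2 and Col3a1, and 259 and 139.5 were left without them. Per 1000 of these, Mmp3 was 64.5, 75.6 and 68.5 against 43.5 and 42.4, higher in every knockout library (ratio 1.62), while Timp3 overlapped (591 against 565). Much of this last scale is 1 gene, Cxcl12, itself called higher (log2 fold change 1.31, SE 0.17). It gave 162, 137 and 185 of 248, 238 and 292 counts in the knockout, and 61 and 56 of 161 and 118 in the wild type. The scale without Cxcl12 was not computed. Which denominator stands for cell number is not known, and the part of the cell mixture in the changes of Mmp3, Mmp9 and Timp3 was not tested.

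**Figure D5:**
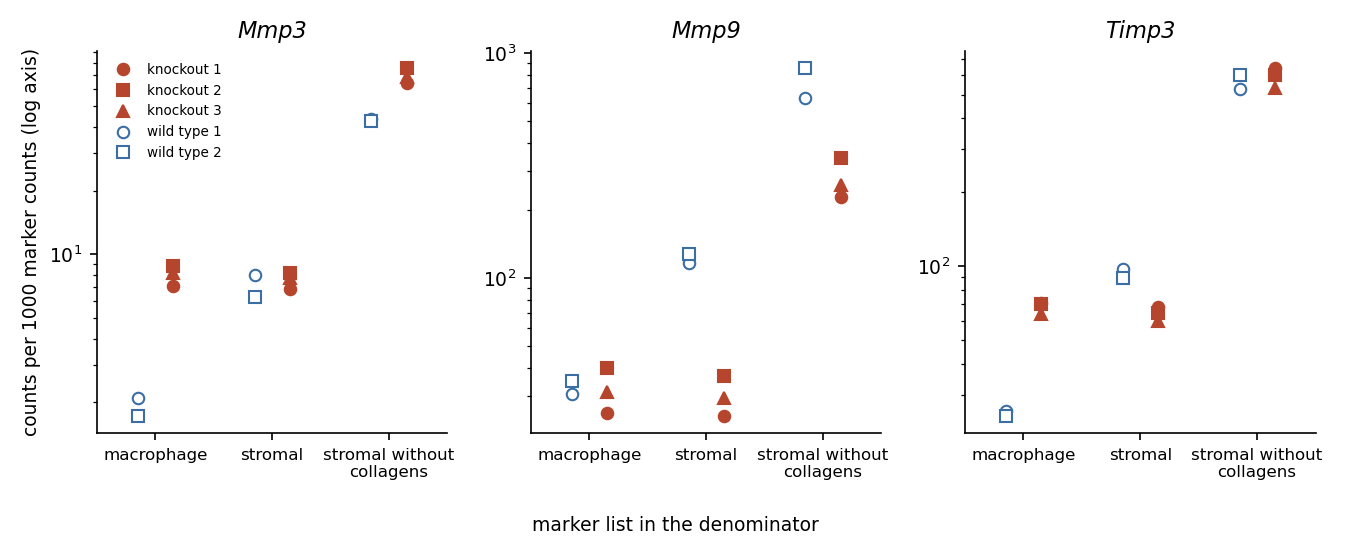
Counts of Mmp3, Mmp9 and Timp3 per 1000 counts of 3 marker lists (log axes with separate ranges; filled, knockout; open, wild type). Mmp9 overlaps between the groups per macrophage counts, Mmp3 per stromal counts, and Timp3 per stromal counts without collagens. Lyz2 is the largest part of the macrophage list and Cxcl12 of the last list.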

How the data were processed

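RNA-seq of 3 knockout and 2 wild type libraries was used, with replicate numbers from the titles. The authors deposited per-gene expected counts and FPKM for each library, per the file headers. Per the submitters' processing notes, HISAT2, StringTie, Bowtie2, RSEM and the build mm10 were used; roles are not given. From the values, the deposited FPKM scales counts by library size and by length less 133 to 136 bases, and listed counts are 76.6% to 80.1% of the total it implies. Genes absent from a library were set to 0. Expected counts were rounded (93.8% to 94.2% were whole within 0.005) and tested with edgeR 4.0.16 in R 4.3.3: filterByExpr (minimum count 10, minimum total 15), TMM, robust quasi-likelihood fits, Benjamini-Hochberg adjustment over 3710 genes. SE was derived from F. CPM uses TMM-scaled totals of tested genes. FPKM served for sums and for order between genes. The fit was checked on simulated counts. DESeq2 1.42.0 and limma 3.58.1, other scaling and filters, and leaving out each library were alternatives. Replicate pairs differed by more than sampling noise (chi-square per degree of freedom 1.34 to 1.52). Exon overlaps came from GENCODE and coordinates from RefSeq.

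The genes and lists were chosen with earlier results of these data known. Named are all 10 genes, Arntl, the listed Mmp and Timp genes, up to 2 genes per direction of each related list by adjusted p, the 5 genes most like Mmp3 and the 3 highest macrophage and stromal markers. Plau, Furin, Serping1, Serpine2, Pdgfra, Lepr, Thy1, S100a8, Camp and the genes at 0 were named after their values were seen.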

Additional observations from a re-analysis of the deposited data

How the results depend on the processing

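With the 9 tested members, the direction held in all 11 alternatives except for Mmp13, which was at 0.039 with the replicate block and -0.25 to 0.15 with a library left out (0.026 without knockout 3, 0.15 without wild type 1) and never passed. Timp3 passed throughout. The number of members called higher was 1 with no filter, DESeq2, voom and the replicate block, and 1 to 3 with a library left out; Mmp3 lost its call in 6 of the 11. The number called lower was 0 with limma on log2(FPKM + 1), and 0 to 1 with a library left out. Genes called higher and lower over the whole table were 170 and 139 with DESeq2 and 171 and 171 with limma on log2(FPKM + 1), and 144 to 323 and 146 to 287 with a library left out. Replicate numbers come from the titles, with no shared animal or day stated, and were not used as pairs. Deviations of same-numbered libraries from their group mean correlated at -0.01 and 0.03. With 2 wild type libraries these deviations mirror each other, so the values cannot decide whether the libraries are paired. With the replicate block 229 genes were higher and 212 lower; Mmp3 was at 1.42 (adjusted p = 0.0594) and Mmp24 at 0.26. The protease to inhibitor ratio and the Mmp3 share kept their direction in every alternative tried. RLE scaling moved the median of all genes by less than 0.01. Depth limits Mmp12, Arntl and the other genes too low to test, and the strand setting limits Mmp19 and Timp3.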
